A study of Homo sapiens with 49 samples.

Results

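The effect of 12 h of TWIST1 hairpin expression on the transcriptome of BE(2)-C cells was examined in 6 RNA-seq libraries, out of 49 samples in the series. BE(2)-C is a human neuroblastoma cell line with an amplified MYCN gene. All cells in this comparison carried a tetracycline-inducible (tet-on) short hairpin against TWIST1 and were grown in tetracycline-free serum. The 12 h group (3 libraries) had received doxycycline at 0.5 µg/ml for 12 h, and the group it was set against (3 libraries) was the same engineered line without doxycycline. Libraries of the same line taken 3, 6, 24 and 48 h after doxycycline, 3 per time, entered the fit to share its estimate of the spread, which then rested on 18 libraries. Levels are FPKM, a measure per transcript length and per library total, and a gene was tested where its unnormalised FPKM averaged 1 or more over those 18 libraries, which gave 11433 of 23621 genes. No library of BE(2)-C cells that received doxycycline without the hairpin was analysed here, so an effect of doxycycline itself cannot be told apart from one of the hairpin. The labels do not say whether the hairpin line was a clone or a pool, nor whether the 3 libraries of a group came from separate cultures. The p-values therefore measure the spread between libraries, which may be technical.

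TWIST1 is a basic helix-loop-helix transcription factor. It binds DNA at E-box sequences (CANNTG) as a dimer with E-proteins such as TCF3, TCF4 and TCF12, and ID proteins hold E-proteins in dimers that do not bind DNA. In embryonic mesoderm and neural crest it is known for its part in migration and in the switch between epithelial and mesenchymal states, and in neuroblastoma its expression accompanies MYCN amplification. MYCN, a MYC family factor, binds E-boxes as a dimer with MAX.

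The cell number had been determined before RNA isolation, and ERCC spike-in RNAs were added at lysis. The authors deposited the levels in an unnormalised table and in a table rescaled to the spike-ins. After rescaling, the spike-ins summed to 34606 to 36588 FPKM in the 12 h libraries and to 34222 to 34728 FPKM without doxycycline. Before rescaling these sums were 16981 to 27999 FPKM at 12 h and 21429 to 36863 FPKM without doxycycline. Differences below are given on 2 scales. The spike-in scale uses the rescaled FPKM and keeps a change in RNA per cell shared by all genes. The centred scale subtracts from each library its median over the tested genes, so a gene is compared with the typical gene of its own library. On both scales a log2 difference was computed on log2(FPKM + 1), which understates the change of genes with low levels.

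2 libraries stood apart. The 12 h library number 2 held 65 genes whose rescaled FPKM + 1 was more than 1.5 times that of every other hairpin library, and 332 genes listed above 0 in it and at 0 in the other 17, against 17 to 81 such genes in each other library. OTX2, a homeobox factor of the forebrain and retina, had 9.64 unnormalised FPKM there and at most 0.0617 in any other hairpin library. MYC had 9.69 unnormalised FPKM there and at most 0.253 elsewhere. The cancer-testis genes GAGE2D, GAGE12B and GAGE2E had 14.7, 17.4 and 13.1 unnormalised FPKM there, against at most 0.0100, 0.349 and 0.0696 elsewhere. NPS, which encodes neuropeptide S, had 3.06 unnormalised FPKM there and was listed at 0 in the other hairpin libraries. IMPG2, a photoreceptor matrix gene, and NEUROD1, a neuronal helix-loop-helix factor, had 2.10 and 2.07 unnormalised FPKM there. None of these 8 genes reached the mean of 1 FPKM, so none was tested. The other cell line of the series, SHEP-21N, had GAGE2D at 12.6 to 64.9, GAGE2E at 6.06 to 21.0 and MYC at 1.96 to 9.73 unnormalised FPKM. It had OTX2, NPS and NEUROD1 at 0 in every library, GAGE12B at most at 0.563 and IMPG2 at most at 0.0158 unnormalised FPKM. The source of these transcripts was not tested. A list of 20 markers of photoreceptors or group 3 medulloblastoma, of which 1 was tested, summed to 1.4, 1.5 and 25.8 unnormalised FPKM in the 12 h libraries numbered 0, 1 and 2, against 1.4, 2.1 and 1.2 without doxycycline. Of the defining markers on it, CRX stood at 0.0743 unnormalised FPKM in 12 h library 2 and RCVRN at 0. OTX2, MYC and IMPG2, described above, are on the same list and gave 9.64, 9.69 and 2.10 of the 25.8 FPKM. The sum therefore largely repeats those values and is not separate evidence. The part of this library in each result was measured by leaving it out.

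**Figure D1:**
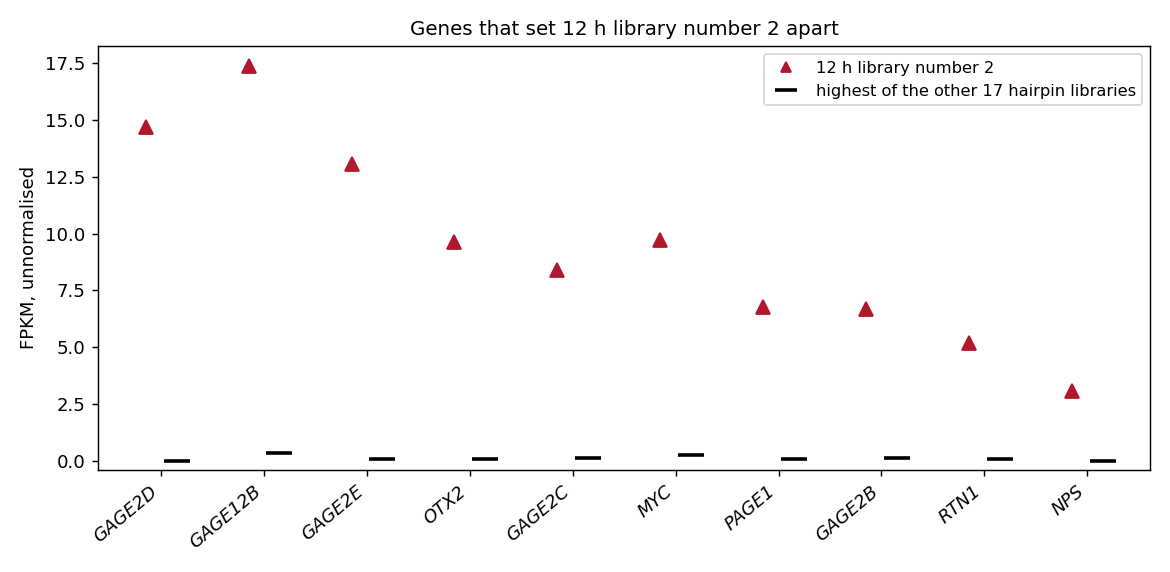
Unnormalised FPKM of the 10 genes most specific to 12 h library number 2, with a triangle for that library and a dash for the highest of the other 17 hairpin libraries. OTX2 and MYC reached 9.64 and 9.69 FPKM in that library and at most 0.0617 and 0.253 FPKM in any other.

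The no doxycycline library number 1 also stood apart, by transcript length. Relative to the mean of the other no doxycycline libraries, its centred levels had a median log2 difference of 0.57 in the shortest of 4 bins of genes by transcript length (up to 2322 bases) and of -0.29 in the longest (5367 bases or more). In 12 h library number 2 these medians were 0.09 and 0.00. Lengths were the longest GENCODE transcript of each symbol, found for 93.0% of the tested genes. Pearson correlations of log2 levels across tested genes were 0.975 to 0.977 between 12 h libraries and 0.949 to 0.980 between no doxycycline libraries. The adrenergic identity of the line was present in both groups: 12 of 12 adrenergic neuroblastoma markers tested summed to 3299 to 3349 unnormalised FPKM in the 12 h libraries and 3256 to 4292 FPKM without doxycycline. In bulk libraries such as these, fewer cells of a type and less RNA per cell cannot be told apart.

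The level of the typical gene per spike-in did not separate the groups. The median tested gene stood at 4.06, 4.68 and 3.94 on the log2 scale in the 12 h libraries of the rescaled table, against 4.37, 3.57 and 4.16 without doxycycline. The groups overlapped, with the highest median in a 12 h library and the lowest in a no doxycycline library. The means were 4.22 ± 0.397 at 12 h and 4.03 ± 0.417 without doxycycline (SD, n = 3 each), a difference of 0.19 (exact permutation test, 2-sided p = 0.6, where 3 against 3 libraries allow no p below 0.1). Without no doxycycline library 1 or without 12 h library 1 the difference was -0.04. Before rescaling, the medians were 3.72 to 3.74 at 12 h and 3.67 to 3.76 without doxycycline. The library with the lowest spike-in sum before rescaling (16981 FPKM, 12 h library 1) had the highest rescaled median, and the one with the highest sum (36863 FPKM, no doxycycline library 1) had the lowest.

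**Figure D2:**
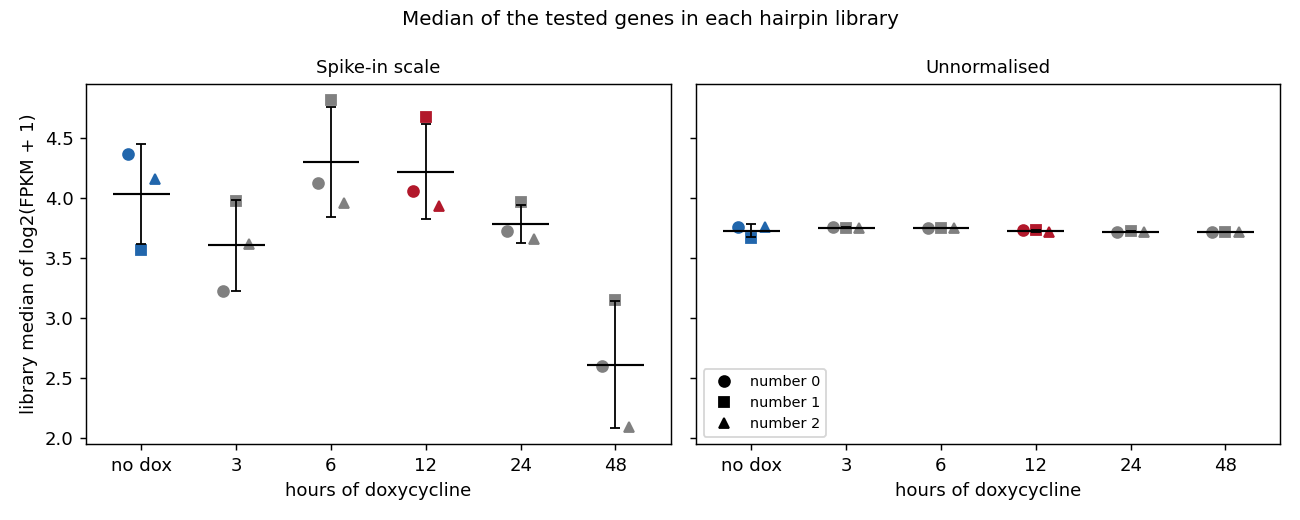
Median log2(FPKM + 1) over 11433 tested genes in each hairpin library by hours of doxycycline, on the spike-in scale (left) and unnormalised (right), with markers for the library number and a black line and bar for the group mean and SD (n = 3). On the spike-in scale the 12 h libraries (red) lay between 3.94 and 4.68 and the no doxycycline libraries (blue) between 3.57 and 4.37, and unnormalised all 6 lay between 3.67 and 3.76.

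TWIST1, the target of the hairpin, was lower in every 12 h library. It had 35.6, 45.3 and 25.7 rescaled FPKM in the 12 h libraries, against 91.8, 70.3 and 82.0 without doxycycline. The highest 12 h library stood below the lowest library without doxycycline. The means were 35.5 ± 9.79 and 81.4 ± 10.8 rescaled FPKM (SD, n = 3 each). In the unnormalised table it had 28.8, 22.9 and 21.2 FPKM at 12 h, against 57.9, 74.6 and 62.1 without doxycycline. The spike-in log2 difference was -1.20 (SE 0.339), which did not pass the test (limma, Benjamini-Hochberg adjusted p = 0.590 over all tested genes). On the centred scale TWIST1 fell by 1.39 (SE 0.103, adjusted p = 3.83e-07), a 2.62-fold lower level. The centred fall was called with each of the 6 libraries left out in turn.

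On the spike-in scale 5 of 11433 genes passed an adjusted p of 0.05 (0.0437%), 2 higher (0.0175%) and 3 lower (0.0262%) at 12 h, and 133 genes had an unadjusted p under 0.05. Besides OAF and STRN4, described below, the calls were the small RNA entries MIR2861, MIR658 and SNORD9. On the centred scale 290 genes passed (2.54%), of which 62 rose (0.542%) and 228 fell (1.99%), and 1657 had an unadjusted p under 0.05. The falls were larger than the rises: 23 falls and 3 rises went beyond 1 on the log2 scale, and the median called fall was -0.50 against a median called rise of 0.35. Of the unnormalised values, those of 467 genes passed (4.08%), 86 higher and 381 lower.

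The 2 libraries that stood apart moved these counts in opposite directions. Without 12 h library 2 the centred calls numbered 169 (1.48%), 19 higher (0.166%) and 150 lower (1.31%), which held 17 of the 62 rises and 149 of the 228 falls. Without no doxycycline library 1 they numbered 1037 (9.07%), 520 higher (4.55%) and 517 lower (4.52%), which held 61 of the 62 rises and 225 of the 228 falls. With both left out they numbered 533 (4.66%), 204 higher (1.78%) and 329 lower (2.88%). The spike-in scale gave 3 calls without 12 h library 2 (0.0262%), 20 without no doxycycline library 1 (0.175%), and 23 without both (0.201%). It gave 12 calls without no doxycycline library 0. Leaving out 12 h library 0 or 1 gave 213 and 146 centred calls. With the 6 libraries alone in the fit, 31 genes passed on the centred scale and 117 on the spike-in scale. With sample quality weights 3471 passed on the centred scale, 2078 higher and 1393 lower. On that scale the excess of falls was thus absent with this weighting and without no doxycycline library 1. It was present with both libraries left out, and in the unnormalised values without no doxycycline library 1 (819 higher and 1151 lower). In 4 bins of equal size by transcript length, from the shortest to the longest, the centred calls were 5, 15, 17 and 19 higher and 28, 73, 80 and 40 lower.

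**Figure D3:**
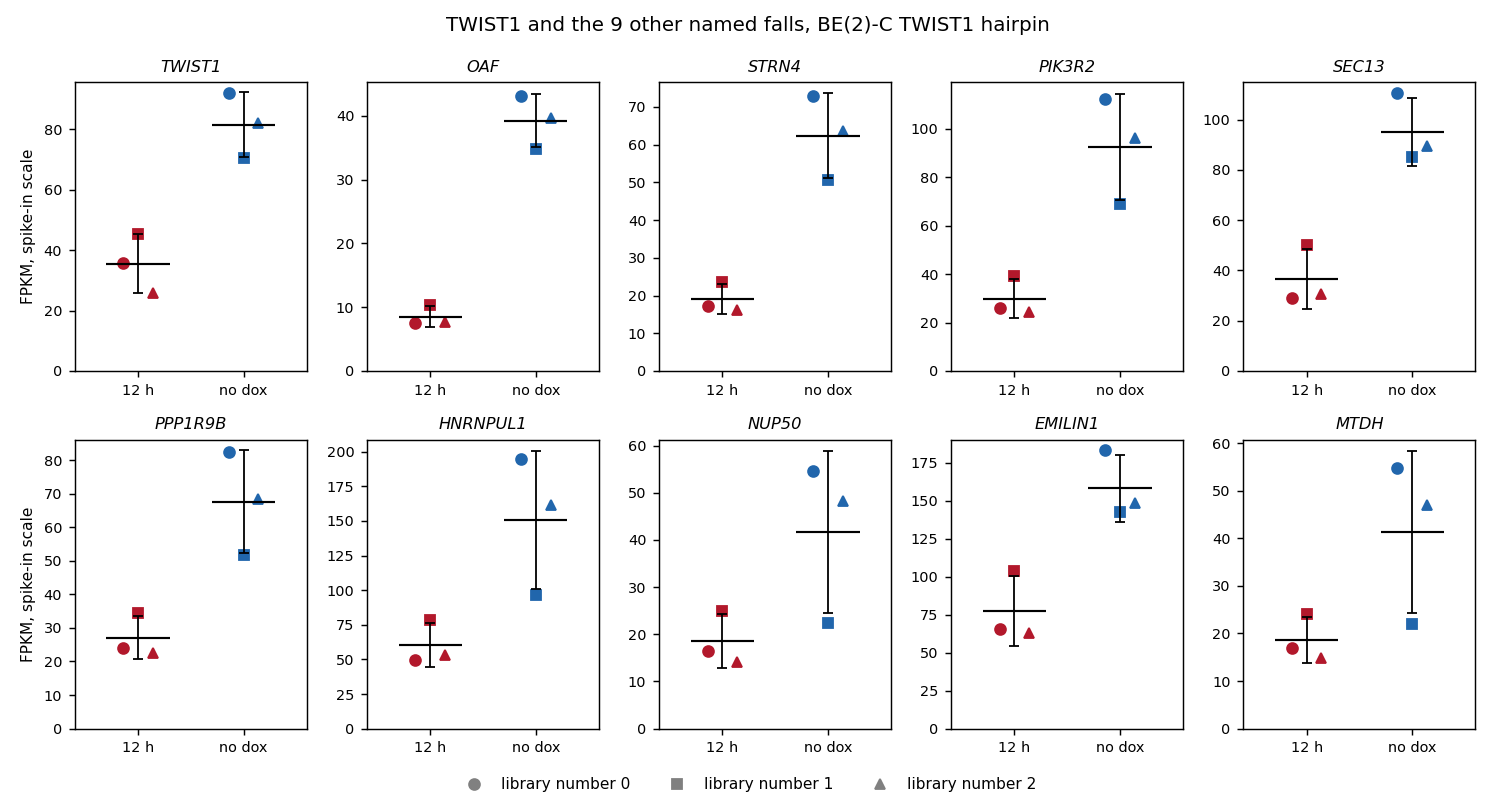
Rescaled FPKM of the 10 coding genes with the largest centred falls in the 12 h (red) and no doxycycline (blue) libraries, with markers for the library number and a black line and bar for the group mean and SD (n = 3). In 8 of the 10 genes all 12 h libraries lay below all no doxycycline libraries, and in NUP50 and MTDH the groups overlapped on this scale. Of all tested genes, 0.289% had all 12 h libraries below all no doxycycline libraries.

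The 10 coding genes with the largest centred falls among those whose libraries did not overlap included TWIST1 itself, at the 7th place. OAF, which encodes a secreted protein, fell most. It had 7.60, 10.4 and 7.63 rescaled FPKM at 12 h, against 43.2, 34.9 and 39.7 without doxycycline, and means of 8.53 ± 1.59 and 39.2 ± 4.18 (SD, n = 3 each). Its fall was 2.09 on the spike-in scale (SE 0.303, adjusted p = 4.91e-04) and 2.27 on the centred scale (SE 0.125, adjusted p = 1.29e-08). OAF was the one coding gene called on the spike-in scale both with all libraries and without 12 h library 2 (adjusted p = 0.00755).

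STRN4 encodes a striatin, a scaffold of the PP2A phosphatase in STRIPAK complexes. It had 17.3, 23.6 and 16.2 rescaled FPKM at 12 h, against 72.9, 50.6 and 63.7 without doxycycline. It fell by 1.66 on the spike-in scale (adjusted p = 0.0267) and by 1.85 on the centred scale (adjusted p = 2.33e-08). The spike-in call of STRN4 was lost without 12 h library 0 or 2 (adjusted p = 0.150 and 0.283) and without no doxycycline library 0 or 2 (adjusted p = 0.114 and 0.113), and with no filter on low values (adjusted p = 0.0616), while the centred call was kept in each case.

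PIK3R2 encodes the beta isoform of the p85 regulatory subunit of PI 3-kinase. Its libraries separated widely, with 26.2, 39.3 and 24.3 rescaled FPKM at 12 h against 112, 68.9 and 96.3 without doxycycline. In the unnormalised table its values were close within each group, 21.1, 19.9 and 20.2 FPKM at 12 h against 71.2, 73.5 and 73.0 without doxycycline. The centred fall was 1.79 (SE 0.0643, adjusted p = 1.07e-10), while the spike-in difference of -1.60 did not pass (adjusted p = 0.0939). PPP1R9B encodes spinophilin, a regulator of protein phosphatase 1 in dendritic spines. It had 24.0, 34.3 and 22.7 rescaled FPKM at 12 h against 82.5, 51.8 and 68.3 without doxycycline, and a centred fall of 1.48 (adjusted p = 1.09e-08).

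SEC13, a subunit of both the COPII vesicle coat and the nuclear pore, had 28.9, 50.2 and 30.5 rescaled FPKM at 12 h against 111, 85.3 and 89.7 without doxycycline, and fell by 1.58 on the centred scale (adjusted p = 6.06e-08). NUP50, a nucleoporin that takes part in importin-dependent transport, had 16.4, 25.0 and 14.2 rescaled FPKM at 12 h against 54.7, 22.3 and 48.3 without doxycycline. There 12 h library 1 stood above no doxycycline library 1, so the groups overlapped on the rescaled scale. In the unnormalised table they did not, with 13.0, 12.5 and 12.0 FPKM at 12 h against 34.7, 24.0 and 36.2 without doxycycline. The centred fall of NUP50 was 1.26 (adjusted p = 3.02e-07).

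The remaining 3 falls were HNRNPUL1, EMILIN1 and MTDH. HNRNPUL1 encodes a nuclear RNA-binding protein and had 49.4, 78.7 and 53.4 rescaled FPKM at 12 h against 195, 96.6 and 161 without doxycycline (centred fall 1.46, adjusted p = 1.09e-08). EMILIN1, a glycoprotein of elastic fibres in the extracellular matrix, had 65.7, 104 and 62.9 rescaled FPKM at 12 h against 184, 143 and 149 without doxycycline (centred fall 1.24, adjusted p = 1.35e-06). MTDH, which encodes metadherin, had 17, 24.0 and 14.9 rescaled FPKM at 12 h against 54.9, 22.1 and 47.0 without doxycycline (centred fall 1.23, adjusted p = 5.34e-07). None of the 10 falls lost its centred call when any 1 of the 6 libraries was left out, nor with the 6 libraries alone in the fit, where their adjusted p-values were 0.00111 to 0.0423. The 6 beyond OAF, STRN4, PIK3R2 and TWIST1 had spike-in adjusted p-values of 0.298 to 0.967.

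The rises were smaller, and most lost their call without at least 1 of the 12 h libraries. Of the 10 coding entries with the largest centred rises, 5 lost their call without 12 h library 0, 7 without library 1 and 6 without library 2, and none lost it without any 1 of the no doxycycline libraries. FLRT3 and TRIB1 kept theirs throughout. With the 6 libraries alone in the fit none of the 10 was called, with adjusted p-values of 0.120 to 0.747. None of the 10 passed on the spike-in scale, with adjusted p-values of 0.298 for BLOC1S5-TXNDC5 and 0.967 for the other 9. FLRT3, an adhesion protein with leucine-rich repeats and a fibronectin domain, had 12.6, 19.1 and 11.7 rescaled FPKM at 12 h against 10.6, 4.50 and 9.44 without doxycycline. It rose by 0.61 on the centred scale (adjusted p = 1.83e-04), and by 0.51 without no doxycycline library 1. TRIB1, a pseudokinase, had 9.13, 14.9 and 7.48 rescaled FPKM at 12 h against 7.62, 3.99 and 6.44 without doxycycline, and rose by 0.51 (adjusted p = 5.60e-04). For both genes all 12 h libraries lay above all no doxycycline libraries on the centred scale, while on the rescaled scale FLRT3 did the same and TRIB1 overlapped.

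CLCN5, an endosomal chloride/proton exchanger, rose by 0.75 (adjusted p = 0.0147), a call lost without 12 h library 1 (adjusted p = 0.101) and near the threshold without library 2 (adjusted p = 0.0489). HIATL2 rose by 0.60 (adjusted p = 0.0100), a call lost without 12 h library 0 (adjusted p = 0.0538), and its family holds near-identical copies, which makes its level uncertain. LPPR4, a neuronal membrane protein related to phospholipid phosphatases, rose by 0.66 (adjusted p = 0.0290), with 61.2, 94.1 and 60.0 rescaled FPKM at 12 h against 60.5, 18.4 and 50.1 without doxycycline. Its no doxycycline library 1 was far below the others, and without that library the rise was 0.39. TMEM245, KPNA5, an importin alpha, and ZNF429, a KRAB zinc finger gene, rose by 0.61, 0.56 and 0.55, and by 0.37, 0.35 and 0.35 without that library. LPPR4 and these 3 genes lost their calls without any 1 of the 12 h libraries (adjusted p = 0.128, 0.0664, 0.111 and 0.137 without library 2). The readthrough entries BLOC1S5-TXNDC5 and SLMO2-ATP5E rose by 1.66 and 1.01 and lost their calls without 12 h library 1 (adjusted p = 0.0813 and 0.0550) and without library 2 (adjusted p = 0.0881 and 0.0627). Each shares exons with the genes it joins, so these 2 levels are uncertain.

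**Figure D4:**
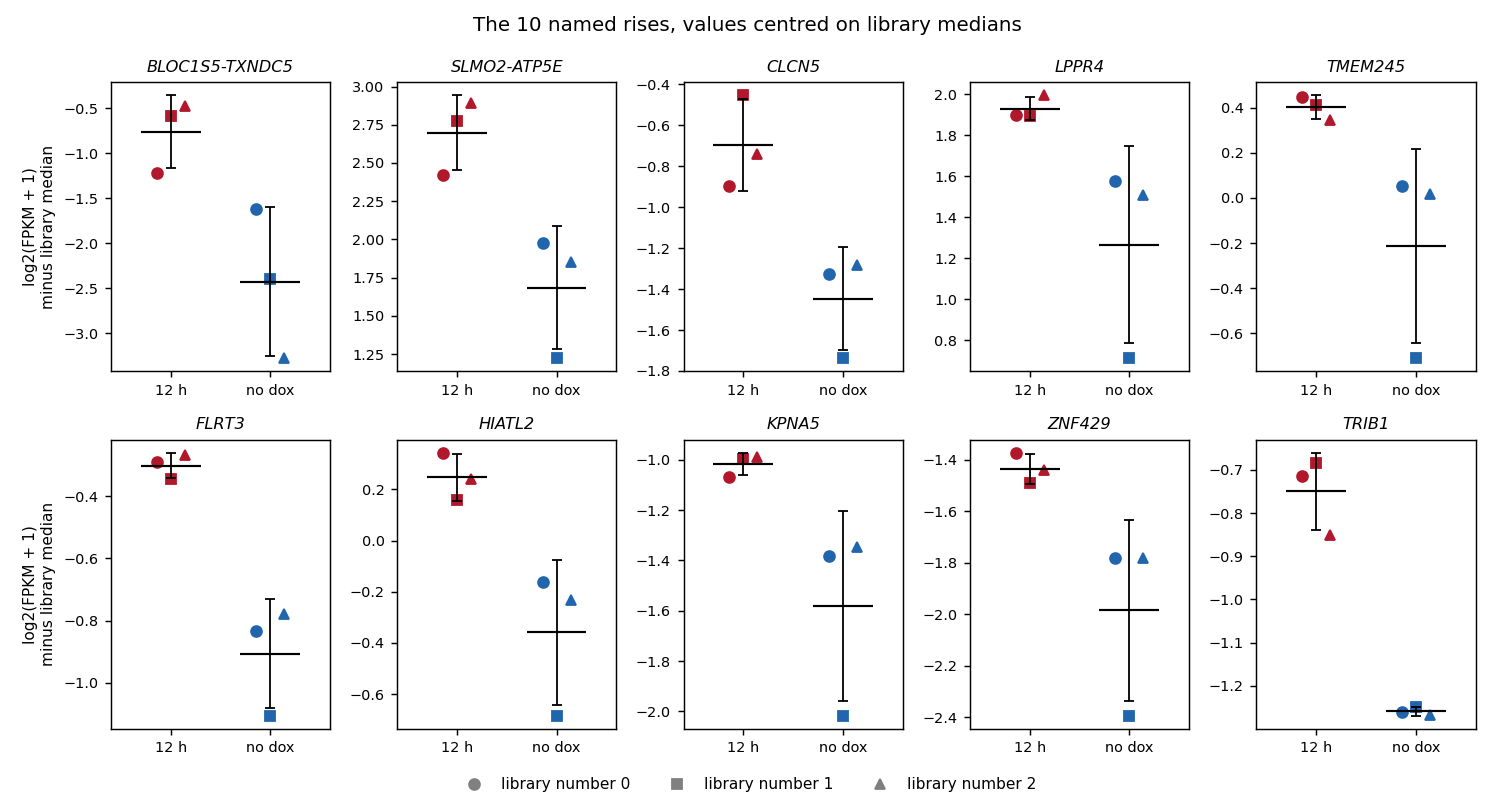
Centred values, log2(FPKM + 1) minus the library median, of the 10 coding entries with the largest centred rises in the 12 h (red) and no doxycycline (blue) libraries, with markers for the library number and a black line and bar for the group mean and SD (n = 3). The 12 h libraries lay above the no doxycycline libraries in all 10 entries, and the rule for naming them required this.

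The promoters of NUP50 and FLRT3 are shown because TWIST1 and MYCN bind E-boxes and these are a fall and a rise with an E-box in the 250 bases before the start. The sequences are from RefSeq on GRCh38.p14, whereas the authors' levels were made on hg19. Capitals mark matches to CANNTG, which reads the same on both strands.
NUP50, chr22:45163675-45163924, plus strand: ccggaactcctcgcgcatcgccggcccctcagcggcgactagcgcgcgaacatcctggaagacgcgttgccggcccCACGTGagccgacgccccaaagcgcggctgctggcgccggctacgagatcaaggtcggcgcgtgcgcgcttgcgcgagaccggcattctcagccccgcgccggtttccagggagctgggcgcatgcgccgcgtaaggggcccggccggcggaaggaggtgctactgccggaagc
FLRT3, chr20:14337613-14337862, minus strand: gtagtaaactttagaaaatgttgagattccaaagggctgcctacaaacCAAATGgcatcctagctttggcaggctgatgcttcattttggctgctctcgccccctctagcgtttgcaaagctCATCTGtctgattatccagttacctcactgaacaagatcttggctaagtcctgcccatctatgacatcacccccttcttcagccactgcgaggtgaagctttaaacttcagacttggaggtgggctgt
The NUP50 window held CACGTG, the form typical of MYC family dimers, and the FLRT3 window held the 2 other matches in capitals. CANNTG was present in 61.8% of 35116 such windows of all genes, CACGTG in 6.34%, and CATCTG, read on either strand, in 12.2%. Of the 10 named falls, 5 matched the promoter table, and 3 of their 9 windows held CANNTG, with CACGTG in 1 of 9 and CATCTG on either strand in 0 of 9. Of the 10 named rises, 6 matched, and 6 of their 8 windows held CANNTG, with CACGTG in 1 of 8, a CLCN5 window, and CATCTG on either strand in 1 of 8, the FLRT3 window. A match describes these letters and not a bound site.

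Among TWIST1 and its partner factors, 3 of 11 tested genes fell on the centred scale and none rose, with a median of -0.09 against 0.00 for all tested genes. The 3 were TWIST1, the target of the hairpin, TCF3 and ID1. Of all tested genes 1.99% fell and 0.542% rose. TCF3, which encodes the E12 and E47 partner proteins, had 48.4, 78.2 and 48.8 rescaled FPKM at 12 h against 76.1, 50.0 and 65.1 without doxycycline, which overlapped. Relative to the typical gene it fell by 0.33 (adjusted p = 0.0189), a call held without 12 h library 2 (adjusted p = 0.0333) and lost without library 0 or 1 (adjusted p = 0.0894 and 0.0819). The other E-protein genes TCF4 and TCF12 had centred differences of 0.02 and 0.14 and did not pass. In no doxycycline library 1 TCF4 stood at 22.5 rescaled FPKM, against 73.6 and 60.4 in the other no doxycycline libraries. Without that library TCF4 fell by 0.25 (adjusted p = 0.0205), which made 4 falls in the list, while 4.52% of all tested genes fell. TCF12 then had a difference of -0.10 that did not pass. ID1, an inhibitor of E-protein binding, fell by 0.64 (adjusted p = 0.0111), which was lost without 12 h library 1 or 2 (adjusted p = 0.0671 and 0.0578). Without no doxycycline library 1 the fall of ID1 was 0.42. ID2 and ID3 had centred differences of -0.21 and -0.10 and did not pass, and without no doxycycline library 1 that of ID3 was 0.08. None of the 11 passed on the spike-in scale (limma), and 1 had p under 0.05 before adjustment.

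The factors that define adrenergic neuroblastoma showed no call at 12 h with all libraries on the spike-in or the centred scale. MYCN had 1150, 1841 and 1233 rescaled FPKM at 12 h against 1423, 851 and 1184 without doxycycline, with a centred difference of 0.10 (adjusted p = 0.648). HAND2 and GATA3, transcription factors of the sympathetic lineage, had centred differences of -0.04 and 0.17. Of all tested genes 2.54% were called on the centred scale, and 1657 of 11433 had p under 0.05 before adjustment (limma). Of 18 adrenergic core factors none was called on the centred scale (limma; 4 had p under 0.05 before adjustment), with a median of 0.08. Of 14 genes of catecholamine synthesis, storage and granins 0 passed (2 unadjusted), with a median of 0.03. TH, the rate-limiting enzyme of catecholamine synthesis, had a centred difference of -0.13, and CHGA, a granin, of -0.06. Without no doxycycline library 1, TH and CHGA turned to 0.13 and 0.14 and HAND2 to 0.05, none of them called. In the catecholamine list SCG2, a granin, then passed with a rise of 0.32 (adjusted p = 0.0341) and GCH1, which makes the cofactor of TH, with a fall of 0.31 (adjusted p = 0.0232), and the list median was 0.13. SCG2 also passed in the unnormalised table (0.30, adjusted p = 0.00196), as did HEY1 among the adrenergic core factors (fall of 0.30, adjusted p = 0.0430). Of 14 members of the MYC and MAX network 0 passed (0 unadjusted), and of 11 mesenchymal identity genes 0 passed (3 unadjusted). Of these 11, FOSL2 rose by 0.26 (adjusted p = 0.0468) and ZEB2 fell by 0.42 (adjusted p = 0.00619) without no doxycycline library 1, and SNAI1 and SNAI2 fell in the unnormalised table by 0.33 and 0.41 (adjusted p = 0.0367 and 0.0337). Beside these calls, 9.07% of all tested genes were called without no doxycycline library 1 and 4.08% in the unnormalised table.

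Immediate early genes, which answer growth factor and stress signals within minutes, had the most calls of any list. On the centred scale 5 of 19 tested fell and 1 rose, against 1.99% and 0.542% of all tested genes, with a list median of -0.15. Without 12 h library 2, 3 fell and none rose, against 1.31% and 0.166% of all tested genes. Without no doxycycline library 1, 5 fell and 1 rose, against 4.52% and 4.55%, and the list median was -0.04. EGR1, a zinc finger factor induced through ERK signalling, had 4.53, 5.87 and 3.54 rescaled FPKM at 12 h against 14.6, 7.55 and 9.92 without doxycycline. The groups did not overlap, and EGR1 fell by 1.21 (adjusted p = 0.00341, and 0.0187 without 12 h library 2). FOS, an AP-1 subunit, had 1.93, 1.41 and 0.693 rescaled FPKM at 12 h against 5.78, 2.54 and 3.22 without doxycycline, and fell by 1.22 (adjusted p = 0.0344), which was lost without 12 h library 1 or 2 (adjusted p = 0.194 and 0.151) and without no doxycycline library 0 (adjusted p = 0.0965). IER2, an early response gene, fell by 0.58 (adjusted p = 0.0131, and 0.0496 without 12 h library 2), which was lost without library 1 (adjusted p = 0.0819), and the fall was 0.38 without no doxycycline library 1. SPRY2 and SPRY4, feedback inhibitors of ERK signalling, fell by 0.33 and 0.29 (adjusted p = 0.00265 and 0.0238), and BTG2, an antiproliferative p53 target, rose by 0.26 (adjusted p = 0.0309). SPRY2 held with each library left out in turn, whereas SPRY4 and BTG2 lost their calls without any 1 library except no doxycycline library 1 (adjusted p = 0.0850 and 0.159 without 12 h library 2).

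The other lists with a call held 1 to 3 called genes each, where 1.99% of all tested genes fell and 0.542% rose. ALDH18A1, which makes proline precursors and is an ATF4 target, was the 1 fall among 21 integrated stress response genes. It had 40.9, 69.2 and 40.5 rescaled FPKM at 12 h against 76.9, 45.9 and 62.8 without doxycycline, and fell by 0.50 on the centred scale (adjusted p = 1.16e-04), with each library left out in turn as well. UHRF1, which maintains DNA methylation at replication, was the 1 fall among 32 DNA replication and E2F genes (fall of 0.39, adjusted p = 0.00656, and 0.0212 without 12 h library 2). IDI1 and MSMO1, enzymes of sterol synthesis, were the 2 falls among 28 genes of sterol and fatty acid synthesis (0.35 and 0.40, adjusted p = 0.0344 and 0.0193), and neither was called without 12 h library 1 or 2, or without no doxycycline library 0. IDI1 was also lost without 12 h library 0. TCOF1, a factor of ribosomal RNA transcription, was the 1 fall among 34 ribosome biogenesis genes (0.28, adjusted p = 0.0446), and PPP1R15A, a subunit of the eIF2-alpha phosphatase, fell by 0.46 (adjusted p = 0.0446). Both were lost without any 1 of the 12 h libraries (adjusted p = 0.0917 and 0.0974 without library 2) and without no doxycycline library 0, and PPP1R15A also without no doxycycline library 1. SMAD5, a BMP effector, was the 1 fall among 14 BMP and TGF-beta genes (0.72, adjusted p = 0.0336), with 9.40, 12.6 and 6.55 rescaled FPKM at 12 h against 21.7, 6.23 and 18.7 without doxycycline. No doxycycline library 1 stood below all 12 h libraries for SMAD5, and the call was lost without 12 h library 1 or 2 (adjusted p = 0.133 and 0.167) and without no doxycycline library 0 or 2. Without no doxycycline library 1 SMAD5 fell by 1.00 (limma, adjusted p = 6.87e-06). In that setting 4 of the 14 genes fell and 0 rose, against 4.52% and 4.55% of all tested genes.

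Over all 30 lists with a tested member there were 583 distinct tested genes. On the centred scale 1 rose and 15 fell, against 0.542% and 1.99% of all tested genes. Of these 16 genes, TWIST1, EGR1, SPRY2, UHRF1 and ALDH18A1 kept their call with each library left out in turn, and 11 lost it without at least 1 of the 12 h libraries. Without 12 h library 2 there were 0 rises and 7 falls among the 583, against 0.166% and 1.31% of all tested genes. Without no doxycycline library 1 there were 15 rises and 28 falls, against 4.55% and 4.52%. None of the 583 passed on the spike-in scale (limma), and 3 had p under 0.05 before adjustment. In 21 lists no member was called on the centred scale with all libraries (408 distinct genes, 34 at an unadjusted p under 0.05), with list medians of -0.06 to 0.08. These included mitosis (0 of 29), cytosolic ribosomal proteins (0 of 32), interferon-stimulated genes (0 of 11), apoptosis regulators (0 of 17), glycolysis (0 of 19) and the neuronal cytoskeleton (0 of 25). The counts in these lists, like those over all tested genes, changed without no doxycycline library 1. Without it 10 of the 21 held a call, and 11 genes rose and 7 fell, against 4.55% and 4.52% of all tested genes. An unadjusted p under 0.05 (limma) was reached by 132 of the 408 genes, against 3165 of all 11433. Without that library the list medians were -0.03 to 0.24, against 0.06 for all tested genes. The median of the cytosolic ribosomal proteins, which was -0.02 with all libraries, became 0.24 without it, with 24 of 32 at an unadjusted p under 0.05 and RPL13 called (0.29, adjusted p = 0.0206). That of glycolysis became 0.20, with the glucose transporter SLC2A1 called (0.32, adjusted p = 0.00887). That of oxidative phosphorylation became 0.16, with CYC1 and ATP5D called (0.25 and 0.24, adjusted p = 0.0366 and 0.0428). Of the 21 lists, 9 held a call in the unnormalised table, with 3 genes higher and 10 lower, against 86 and 381 of all 11433 tested genes.

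The 12 h libraries were also set against the neighbouring times. On the centred scale 23 genes differed between 12 h and 6 h (0.201%), 1 higher (0.00875%) and 22 lower (0.192%) at 12 h, and 541 differed between 24 h and 12 h (4.73%), 177 higher (1.55%) and 364 lower (3.18%) at 24 h. With any 1 library left out the first count was 10 to 18, and the second was 158 without 12 h library 2 and 175 to 465 without any other. Spike-in calls were 3 (0.0262%, 67 unadjusted) and 5 (0.0437%, 945 unadjusted). Of the 10 named falls, 8 were lower again at 12 h than at 6 h, and 6 were lower at 24 h than at 12 h. The falls had been chosen by their low values in the same 12 h libraries, which favours the first of these counts. TWIST1 and OAF passed in neither step. Relative to the no doxycycline libraries, which all times share, the centred difference of TWIST1 was -0.52, -0.95, -1.39, -1.65 and -1.87 at 3, 6, 12, 24 and 48 h. That of OAF was -0.85, -1.98, -2.27, -2.57 and -2.41. HNRNPUL1 was close to 0 at 3 h, with -0.08, -0.49, -1.46, -2.66 and -2.97, and PIK3R2 had -0.10, -0.78, -1.79, -2.77 and -3.04. Of the 10 named falls, OAF was the one called at 3 h (adjusted p = 0.0422). The 3 h library number 1 carried haemoglobin transcripts, and without it the 3 h differences of TWIST1 and OAF were -0.49 and -0.82, OAF was not called (adjusted p = 0.168), and the 3 h comparison gave 0 centred calls (limma; 549 at an unadjusted p under 0.05) and 3 on the spike-in scale. FLRT3 had 0.26, 0.33, 0.61, 0.96 and 1.28 at the same times. The centred calls against no doxycycline numbered 3 (0.0262%), 45 (0.394%), 290 (2.54%), 2037 (17.8%) and 5996 (52.4%) at 3, 6, 12, 24 and 48 h, and those on the spike-in scale 4 (0.035%), 4 (0.035%), 5 (0.0437%), 69 (0.604%) and 10682 (93.4%).

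**Figure D5:**
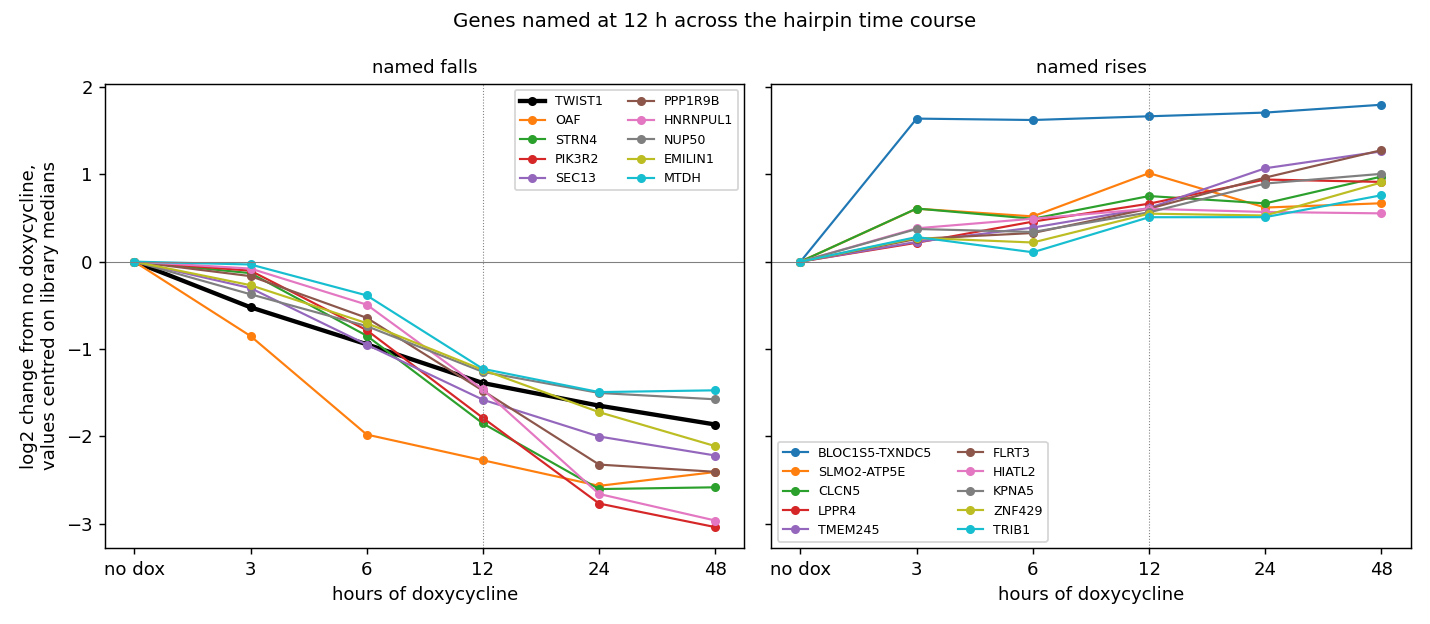
Centred log2 difference from no doxycycline at 3, 6, 12, 24 and 48 h for the named falls (left) and rises (right), with 1 line per gene and a dotted line at 12 h. OAF was at -1.98 by 6 h, TWIST1 at -0.95 and HNRNPUL1 at -0.49, and all times share the same 3 no doxycycline libraries.

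The small RNA entries behind the remaining spike-in calls were each listed at 0 in all libraries of a group, so no fold is given. MIR658 had 146, 42.4 and 51.5 unnormalised FPKM at 12 h and was listed at 0 in the 3 no doxycycline libraries (adjusted p = 3.69e-06 on the spike-in scale, and 1.05e-05 without 12 h library 2). MIR2861 had 119, 104 and 0 unnormalised FPKM at 12 h and was listed at 0 without doxycycline (adjusted p = 0.0184, and 0.123 and 0.344 without 12 h library 0 and 1). Without 12 h library 2, where MIR2861 was listed at 0, its spike-in call held (limma, adjusted p = 1.69e-20). SNORD9 was listed at 0 at 12 h and had 36.8, 0 and 47.2 unnormalised FPKM without doxycycline (adjusted p = 0.0184), and its call was lost without 12 h library 1 or 2 (0.161 and 0.121) and without no doxycycline library 0 or 2 (0.0550 and 0.0896). The mature products of the 2 microRNA genes, from RefSeq on GRCh38.p14 with the seed (bases 2 to 8) in capitals, are shown because these entries gave 2 of the 5 spike-in calls.
hsa-miR-658, chr22:37844287-37844311, minus strand: gGCGGAGGgaaguagguccguuggu
hsa-miR-2861, chr9:127785971-127785989, plus strand: gGGGCCUGgcggugggcgg
The libraries were made from polyadenylated RNA, so a value at these entries is not a level of the mature microRNA, and at such short entries a few fragments give a large FPKM. The spike-in calls between neighbouring times, named after their values were seen, were also of small RNA entries. Between 12 h and 6 h they were MIR2861, SNORA71A and SNORD104. SNORD104 had 1072, 467 and 568 unnormalised FPKM at 12 h and was listed at 0 at 6 h (adjusted p = 0.00910). SNORA71A was listed at 0 at 12 h and had 6.99, 7.71 and 19.5 FPKM at 6 h (adjusted p = 0.00121). Between 24 h and 12 h they were MIR2861, MIR589, MIR658, SNORA57 and SNORA71A. SNORA57 had 5.34, 0 and 0 unnormalised FPKM at 24 h against 10.3, 13.4 and 10.9 at 12 h (adjusted p = 0.00191). MIR589 had 54.5, 114 and 47.6 unnormalised FPKM at 24 h and was listed at 0 at 12 h (adjusted p = 0.00942).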

How the data were processed

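Polyadenylated RNA was sequenced on stranded Illumina libraries, per the labels' protocols. HISAT, Cufflinks 2.0.0 and hg19 are listed in the submitters' processing notes. Per gene symbol the authors deposited FPKM in an unnormalised table and in a table rescaled to the ERCC spike-ins. The rule by which they rescaled is not recorded in the labels or headers. Each table held 23713 entries, 92 of them spike-ins, and 33.7% of the unnormalised values were 0, which stand near 0.1 in the rescaled table. Counts of reads were not used and the absolute depth is unknown. The value of the smallest steps in the FPKM gave a relative depth per library whose highest was 1.38 times the lowest. Column numbers (0 to 2) differ from the replicate numbers in the labels (1 to 3), so columns were mapped to groups, and a number here only tells libraries apart.

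From these FPKM, log2(FPKM + 1) was fitted with limma 3.58.1 (trend; R 4.3.3), with 1 mean per group over 18 libraries, for genes with a mean unnormalised FPKM of at least 1. P-values were Benjamini-Hochberg adjusted over all 11433 tested genes, with a threshold of 0.05. For the centred scale each library's median over the tested genes was subtracted. The genes named were TWIST1, the 10 largest rises and 10 largest falls among called genes whose groups did not overlap (on the centred scale, since fewer than 10 passed on the spike-in scale), up to 4 members per list by adjusted p, and the 10 genes most specific to 12 h library 2. Small RNA, LOC, LINC, antisense and orf symbols were left out of that rule, and the 5 calls on the spike-in scale, MYCN, the E-proteins and other list members were named in addition after their values were seen. The members, lists and tests were chosen with earlier results of these data known.

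On data simulated for the 12 h comparison with 11433 genes, log2 changes of 0.5, 1 and 2 were recovered in 0%, 13.0% and 100% of genes on the spike-in scale and in 78.0%, 97.0% and 100% on the centred scale, and 0.472% and 0.125% of the unchanged genes were called on the 2 scales. The simulated noise was independent between genes, whereas no doxycycline library 1 deviated in many genes together, by transcript length. These rates may therefore not hold for the real libraries, where 0.0437% of genes were called on the spike-in scale. The libraries compared numbered 6 of 49 samples. Alternatives were the unnormalised table, a pseudocount of 0.1, no filter, a fit to the compared libraries alone, sample quality weights, a replicate block and leaving out each library. Alternatives applied after centring, leaving out 12 h library 2 together with no doxycycline library 1, and leaving out 3 h library 1 were added after seeing the data.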

Additional observations from a re-analysis of the deposited data

Results flagged for a closer look

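In the 3 h library number 1, which enters the shared fit and the 3 h values of the time course, a list of blood markers summed to 51.0 unnormalised FPKM, mostly HBB (38.4) and HBA1 (11.9), against 0.192 to 1.25 in the other hairpin libraries. Without it the 12 h comparison gave 285 centred calls, against 290 with it, and 5 spike-in calls in both cases.

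Several of the genes named at 12 h differed from a neighbouring time in a test of that step itself (limma, adjusted p under 0.05, centred scale). For 12 h minus 6 h the log2 differences were -1.005 for STRN4, -1.005 for PIK3R2, -0.97 for HNRNPUL1, -0.84 for MTDH, -0.83 for PPP1R9B, -0.63 for SEC13, -0.54 for EMILIN1, -0.52 for NUP50 and 0.40 for TRIB1. For 24 h minus 12 h they were -1.20 for HNRNPUL1, -0.98 for PIK3R2, -0.85 for PPP1R9B, -0.75 for STRN4, -0.48 for EMILIN1, -0.42 for SEC13 and 0.36 for FLRT3. Both steps share the 12 h libraries, by whose values these genes had been chosen. The 12 h minus 6 h differences are therefore not an independent check.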

How the results depend on the processing

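The counts of calls depended on the scale and on the estimate of the spread. Calls of the named falls also depended on the scale: of the 10, OAF and STRN4 alone passed on the spike-in scale with all libraries. All 10 kept their centred calls under the alternatives, but they had been chosen as the largest centred falls. On the spike-in scale, the 5 calls at 12 h against no doxycycline became 467 in the unnormalised table, 290 after centring, 15 with a pseudocount of 0.1, 117 with the compared libraries alone, 903 with sample quality weights, 248 and 169 without 12 h library 2 in the unnormalised and centred tables, and 3 to 20 with 1 library left out. The 3 calls between 12 h and 6 h became 67, 23, 1 (no filter), 93, 266, 35 and 18 under the unnormalised table, centring, no filter, the compared libraries alone, quality weights, and the same 2 tables without 12 h library 2, and 1 to 5 with 1 library left out. The 5 calls between 24 h and 12 h became 1015, 541, 9 (pseudocount 0.1), 1 (no filter), 222, 8774, 456 and 158, and 3 to 7 with 1 library left out. After centring, the 290 calls became 31 with the compared libraries alone, 3471 with quality weights (2078 higher and 1393 lower, against 62 and 228), 533 with both doubtful libraries left out, and 146 to 1037 with 1 left out. The centred count between 12 h and 6 h became 36 (pseudocount 0.1), 11 (no filter), 105 (compared libraries alone) and 1727 (quality weights, 988 higher and 739 lower, against 1 and 22), and 10 to 18 with 1 library left out. That between 24 h and 12 h became 140, 2163 and 4781 (no filter, compared libraries alone, quality weights), and 158 to 465 with 1 left out. The cause of these shifts was not tested.

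TWIST1 passed in the unnormalised table (-1.38, and -1.29 without 12 h library 2), after centring (-1.39, and -1.33 without it) and with quality weights (-1.26), against -1.20 on the spike-in scale. With 1 library left out it was -1.39 to -0.99 on the spike-in scale and passed in none of these. The median difference of 0.19 turned to -0.0441 without no doxycycline library 1 and -0.0375 without 12 h library 1, within -0.0441 to 0.357 over all 6. It has no value after centring, and the fit settings do not apply to it. Of 2040 comparisons of 136 named genes on the spike-in scale, 1806 kept direction and side of the threshold, 116 came to pass, 18 ceased to pass and 100 turned sign with no call. Of 240 centred comparisons of 20 named genes, 203 kept both and 37 ceased to pass, all among the rises.

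Across genes, libraries of the same number did not deviate together (correlations of 0.01, -0.12 and -0.14 for numbers 0, 1 and 2). A shift of a whole library leaves these correlations unchanged, so they cannot settle whether the numbers mark pairs. With a replicate block the spike-in counts were 3 at 12 h against no doxycycline, 0 between 12 h and 6 h and 0 between 24 h and 12 h, the centred counts were 289, 24 and 574, and TWIST1 had an adjusted p of 0.282 on the spike-in scale. The number of libraries, 3 per group, and the spread of the spike-in factors limit what the spike-in scale can show.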
